A study of Homo sapiens with 26 samples.

Results

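The genes of oxidative phosphorylation are described here in the HBCCL panel, a set of cultured lines of human B-cell malignancies. They were chosen by symbol: every gene whose annotated symbol starts with NDUFA, NDUFB, NDUFC, NDUFS or NDUFV (complex I), SDHA to SDHD (complex II), UQCR (complex III), COX4 to COX8 (complex IV) or ATP5 (complex V) was taken where a probe-set of its own measured it, and 2 pseudogenes were left out. This gave 92 of the 19775 genes with a probe-set of their own. Baseline expression was measured with 1 Affymetrix HG-U133 Plus 2.0 array in each of 26 untreated cell lines, 12 of multiple myeloma (MM) and 14 of diffuse large B-cell lymphoma (DLBCL). The MM group holds AMO-1, labelled as a plasmacytoma line, and the DLBCL group holds MC-116, labelled as an undifferentiated lymphoma line. All lines were grown in drug-free medium with serum and harvested in exponential growth, 7 MM lines and 9 DLBCL lines in 10% serum and the others in 15 or 20%. The same lines had been screened for resistance to cyclophosphamide (C, tested with mafosfamide in its place), doxorubicin (H) and vincristine (O), summarised as AUC0, the area below a line's dose response curve where that curve is positive, which is larger in more resistant lines. Each line was measured once, so the line is the replicate and the SDs below hold differences between lines together with technical error.

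Oxidative phosphorylation takes place in the inner membrane of the mitochondrion. Complexes I and II pass electrons from NADH and succinate to ubiquinone, complex III passes them on to cytochrome c, and complex IV hands them to oxygen. Complexes I, III and IV pump protons as they do so, and complex V (ATP synthase) makes ATP from the return of the protons. Most subunits are encoded in the nucleus and a few core subunits in mitochondrial DNA. Resting and activated B cells, germinal centre cells and plasma cells differ in how much they rely on this pathway, and antibody secretion by plasma cells takes up much ATP.

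Of the 92 genes, 69 encode common structural subunits and 6 encode tissue-restricted isoforms of complex IV subunits. These 75 structural genes comprise 33 of complex I, 3 of complex II, 6 of complex III, 16 of complex IV and 17 of complex V. The literal prefixes also took in 12 assembly factors (NDUFAF and SDHAF genes), 2 regulators (ATP5IF1, the inhibitor of ATP synthase, and COX7A2L, a factor of respiratory supercomplexes) and 3 non-coding loci (NDUFB2-AS1, NDUFV1-DT and NDUFV2-AS1), which are given apart. NDUFC2, NDUFS5, NDUFS8 and UQCRH are measured only by probe-sets shared with another symbol and are not among the 92. SDHB was not analysed here. ATP5MF is represented by a dim probe-set of its own. NDUFA4, which the annotation calls COXFA4 and places with complex IV, and its relative NDUFA4L2 (COXFA4L2) fall outside the rule. Values are log2 intensities, and a gene with several probe-sets, as 51 of the 92 have, is represented by that of the highest mean over the 26 lines. A total of 87 of the 92 had a mean of 6 or more. Levels of different probe-sets were not compared as amounts of RNA.

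The labels of the groups were checked against marker genes. Of 7 measured B-cell markers, 7 were lower in MM lines, and of 8 plasma cell markers 6 were higher. The mean log2 value of the B-cell markers was between 5.31 and 6.74 in MM lines and between 9.41 and 11.76 in DLBCL lines. That of the plasma cell markers was between 8.93 and 12.54 in MM lines and between 7.02 and 10.26 in DLBCL lines. The groups overlapped here, since KMS-12-BM (8.93) was below the highest DLBCL line, U2932 (10.26), while the other 11 MM lines were above it. None of 9 T-cell, NK and myeloid markers and none of 6 stromal and endothelial markers was called, and their mean values stayed between 4.89 and 5.38 and between 5.62 and 5.96 in MM lines, against 4.91 to 5.27 and 5.55 to 6.01 in DLBCL lines. The difference between the 3' and 5' control probe-sets of ACTB, a sign of RNA quality, was 0.27 ± 0.11 in MM lines and 0.17 ± 0.10 in DLBCL lines (SD, n = 12 and 14). The labels name no scan date or batch.

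The first question was whether the genes differ between the diseases. In MM lines 9 of the 92 genes were higher than in DLBCL lines and none was lower, at a Benjamini-Hochberg adjusted p under 0.05 over all 33297 tested probe-sets (limma). Of all tested probe-sets, 5.49% were higher in MM lines and 5.4% lower. The 9 were 5 subunits of complex I (NDUFV3, NDUFA1, NDUFB7, NDUFA5 and NDUFA8), SDHC of complex II, COX7B and COX7B2 of complex IV, and ATP5PD of complex V. All are structural genes. Counting both directions, 9 of the 92 genes and 3628 of the 33297 probe-sets were called. With the fit limited to probe-sets with a mean of 6 or more, 8 of 87 genes and 2960 of 15509 probe-sets were called. The share called in either direction was thus lower among the genes than among all probe-sets in both fits. Whether these shares differ was not tested. At an unadjusted p under 0.05, 24 genes were higher in MM lines and 3 lower, where the shares of all probe-sets were 11.3% and 13.6%. The fitted difference was above 0 for 70 of the 92 genes (76.1%), while it was above 0 for 44.95% of all tested probe-sets and for 47.6% of those with a mean of 6 or more. The median difference was 0.16 over the 92 genes and -0.02 over all probe-sets. With the 3' minus 5' value of ACTB as a term of the fit, 5 of the 92 genes were called, and SDHC and NDUFV3 were the 2 shared with the 9 named here, while NDUFA6, NDUFB3 and NDUFS6 were called in addition. Over all probe-sets the calls were 2745 of 33297 with that term and 3628 without it. The other 7 genes then had adjusted p values from 0.0529 to 0.111, while their differences remained above 0: 0.42 for NDUFA1, 0.35 for ATP5PD, 0.44 for NDUFB7, 0.37 for NDUFA5, 0.40 for COX7B, 1.92 for COX7B2 and 0.45 for NDUFA8.

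SDHC, which anchors succinate dehydrogenase in the membrane and helps bind its ubiquinone, had the smallest p of the 92 genes. The gene lies on chromosome 1 (chr1:161314381-161363206, GRCh38.p14). Its log2 value ranged from 10.42 to 11.64 in MM lines with a median of 10.82, and from 9.85 to 10.61 in DLBCL lines with a median of 10.19. In 11 of the 12 MM lines it was above every DLBCL line, and KMS-12-BM was the exception. The difference was 0.75 (SE 0.12, adjusted p = 0.000177). SDHC is measured by 7 probe-sets, all of which had a positive difference (0.37 to 1.21), and 6 of them were called when every probe-set was tested on its own. Among the 70 measured genes within 2000000 bases of SDHC, 20 were higher in MM lines and 6 lower, with a median difference of 0.18. The corresponding counts around the other 8 called genes were between 0 and 8 higher of 14 to 100 neighbours. SDHA, the flavoprotein of the same complex, ranged from 10.20 to 12.45 in MM lines and from 10.31 to 11.57 in DLBCL lines and was not called (difference 0.37, SE 0.19, adjusted p = 0.235). SDHD, the other membrane anchor, had a difference of 0.06 (SE 0.25). Of the SDH subunits measured, SDHC alone passed the test.

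In complex I the largest difference was that of NDUFV3, an accessory subunit next to the NADH-binding site. Its value ranged from 9.16 to 10.92 in MM lines with a median of 9.83, and from 7.76 to 9.71 in DLBCL lines with a median of 9.20. A total of 10 MM lines were above the highest DLBCL line, and the difference was 0.95 (SE 0.20, adjusted p = 0.00237). Both of its probe-sets were called. NDUFA1, a small membrane subunit encoded on the X chromosome, had values from 12.09 to 13.23 in MM lines and from 11.61 to 12.32 in DLBCL lines, a difference of 0.51 (SE 0.12, adjusted p = 0.00668). RPMI-8226 was highest and LP-1 lowest among the MM lines, and 6 MM lines lay above all DLBCL lines. NDUFB7, an accessory subunit of the membrane arm on the intermembrane side, had a median of 10.18 in MM lines and 9.79 in DLBCL lines (difference 0.46, SE 0.13, adjusted p = 0.0192). NDUFA5, an accessory subunit of the peripheral arm, had a median of 11.07 in MM lines and 10.56 in DLBCL lines (difference 0.45, SE 0.13, adjusted p = 0.021). NDUFA8, also on the intermembrane side, had a median of 11.03 in MM lines and 10.58 in DLBCL lines, a difference of 0.41 (SE 0.13). Its adjusted p of 0.041 was the closest to the threshold, and it was above 0.05 in 15 of the 26 fits that left out 1 line. SU-DHL-8 was the lowest DLBCL line for NDUFV3, NDUFA1, NDUFB7 and NDUFA8, and the highest for NDUFA5. The groups overlapped for each of these genes.

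Complex V contributed ATP5PD, subunit d of the peripheral stalk. Its value ranged from 11.98 to 13.08 in MM lines with a median of 12.54 and from 11.71 to 12.42 in DLBCL lines with a median of 12.10. The difference was 0.40 (SE 0.10, adjusted p = 0.0126), and 8 MM lines were above the highest DLBCL line. ATP5PB, subunit b of the same stalk, had the largest negative difference among the structural genes apart from COX7A2, with a median of 12.66 in MM lines and 12.99 in DLBCL lines (difference -0.35, SE 0.15, adjusted p = 0.132). The catalytic subunits ATP5F1A and ATP5F1B had differences of 0.03 and 0.16 and were not called. ATP5IF1, the inhibitor, had a difference of -0.05 (SE 0.24). No gene of complex III was called, and UQCR10, a small subunit of that complex, had its smallest p (difference 0.22, SE 0.11, adjusted p = 0.187). For ATP5PD, NDUFB7, NDUFA5 and COX7B a second, dimmer probe-set (mean 4.89 to 6.54) had differences between -0.09 and 0.00.

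**Figure D1:**
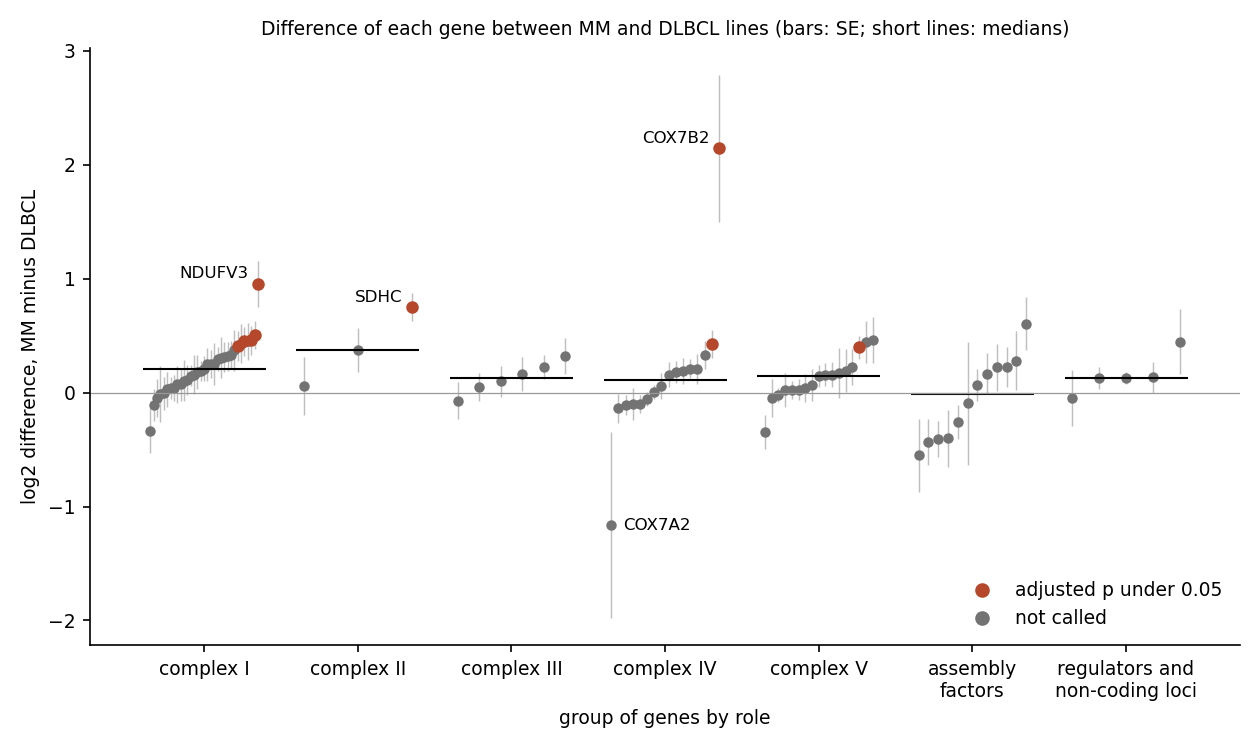
Log2 difference between MM and DLBCL lines (vertical axis, MM minus DLBCL) of each of the 92 genes, grouped by role along the horizontal axis. Grey bars are SEs, short black lines are the medians of a group, and the 9 red points passed the adjusted threshold, all of them above 0.

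In complex IV, COX7B and COX7B2 were called. COX7B, a small subunit on the X chromosome that is found in all tissues, ranged from 11.98 to 13.21 in MM lines with a median of 12.74 and from 11.83 to 12.59 in DLBCL lines with a median of 12.41 (difference 0.42, SE 0.12, adjusted p = 0.0247). COX7B2 is an isoform known mainly from testis. Its values formed separate clusters within MM. In 5 MM lines it was 8.08 (NCI-H929), 8.67 (RPMI-8226), 8.75 (KMS-12-BM), 9.52 (KMS-12-PE) and 10.22 (U-266), and in KMM-1 it was 5.07. The other 6 MM lines were between 3.94 and 4.37, within the range of the DLBCL lines (3.89 to 4.46). The difference of the means was 2.14 (SE 0.64, adjusted p = 0.031), and it was carried by these 5 lines. The DLBCL values lie near the low end of the array's scale and no detection call was used, so the size of this difference is uncertain and may understate the contrast. Without any 1 of the 5 the adjusted p was above 0.05, up to 0.0566. KMS-12-BM and KMS-12-PE are sister lines from 1 patient, so they are not independent. The other isoforms had narrow ranges. COX6A2, the heart and skeletal muscle form, had values from 5.33 to 6.29 in MM lines and from 4.92 to 5.75 in DLBCL lines (difference 0.18, adjusted p = 0.255). COX7A1, the other muscle isoform, and COX4I2, the isoform of lung and of low oxygen, had differences of -0.10 and -0.11. COX6B2 and COX8C, both known from testis, had differences of 0.01 and -0.06. Of the common counterparts, COX8A (0.33) and COX6A1 (0.21) had differences above 0 and COX4I1 (-0.14) and COX6B1 (-0.10) below 0, with none called. COXFA4 had a difference of 0.04 and COXFA4L2 of -0.16.

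COX7A2 had the widest spread of the 92 genes. It encodes the common form of subunit VIIa. Its value was 4.44 in KMS-12-PE and 4.45 in LP-1, against 11.90 to 13.29 in the other 10 MM lines and 11.35 to 12.61 in the 14 DLBCL lines. KMS-12-BM, the sister line of KMS-12-PE, had 12.27. The difference between the diseases was -1.16 with an SE of 0.82 (adjusted p = 0.401) and was -0.56 without KMS-12-PE and -0.56 without LP-1. Of 17 measured genes within 2000000 bases of COX7A2, none was below all other lines in either of these lines, and the adjacent TMEM30A had 9.44 in KMS-12-PE and 8.89 in LP-1, where the median of the other lines was 9.32. A single probe-set measures COX7A2. SDHAF3, an assembly factor for the iron-sulfur subunit of complex II, showed a similar pattern, with 3.83 in LP-1 and 4.11 in SU-DHL-8, against 7.96 to 9.79 in the other MM lines and 7.05 to 9.56 in the other DLBCL lines. None of its 24 measured neighbours was below all other lines in either line. SDHAF4, another assembly factor of complex II, was lowest in HBL-1 (4.08) and between 5.03 and 7.69 elsewhere, and 1 of its 11 neighbours, OGFRL1, was also below all other lines in HBL-1 (4.97, where the lowest other line had 5.33). NDUFV2-AS1, a non-coding locus next to NDUFV2, ranged from 4.47 to 7.60 in MM lines and from 4.88 to 7.16 in DLBCL lines. LP-1 was low for both COX7A2 and SDHAF3.

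**Figure D2:**
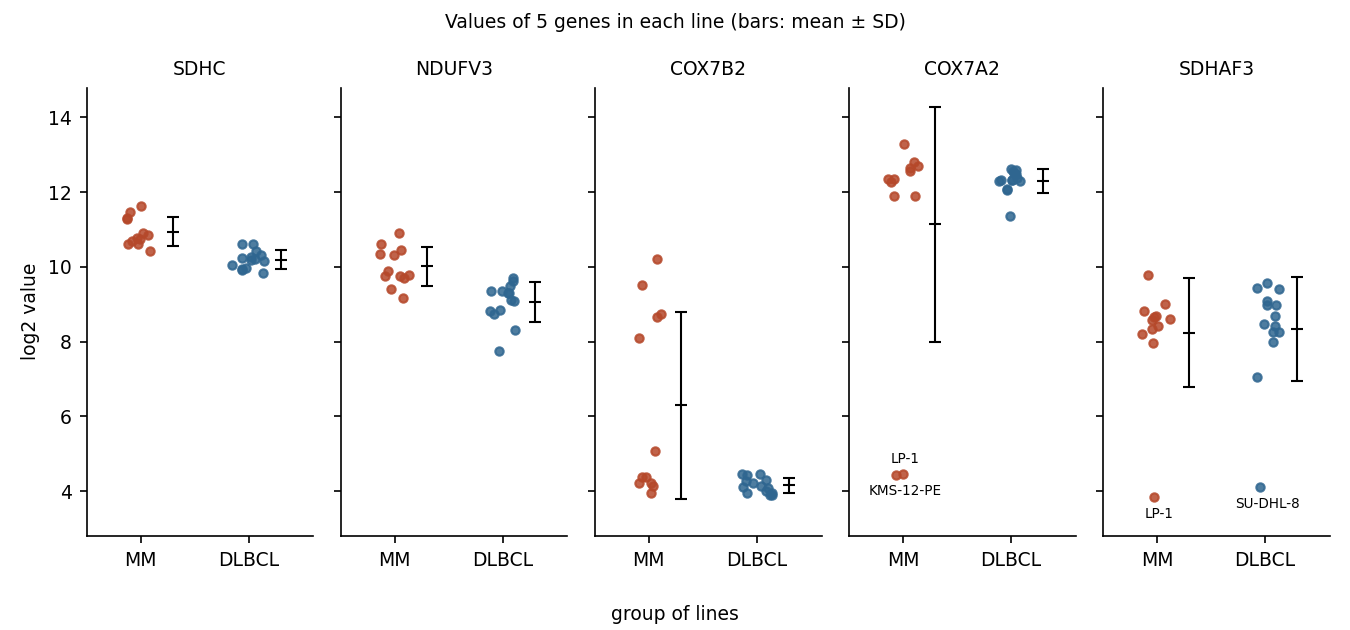
Log2 values (vertical axis) of SDHC, NDUFV3, COX7B2, COX7A2 and SDHAF3 in each line, MM lines in red and DLBCL lines in blue, with the mean ± SD beside them. SDHC and NDUFV3 shift as a group, COX7B2 is high in 5 MM lines alone, and COX7A2 and SDHAF3 are low in 2 lines each (named).

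None of the 12 assembly factors was called. NDUFAF3 was at 0.60 (SE 0.23, adjusted p = 0.0958), while SDHAF4 (-0.55), NDUFAF5 (-0.43), NDUFAF7 (-0.41) and NDUFAF6 (-0.40) were the lowest after COX7A2. NDUFAF7, a methyltransferase needed for the assembly of complex I, passed the threshold without KMS-12-PE (-0.48, adjusted p = 0.0431) and without MC-116 and AMO-1 (-0.50, adjusted p = 0.0423). The mean log2 value over the assembly factors was 9.08 ± 0.22 in MM lines and 9.13 ± 0.19 in DLBCL lines (SD). That over the structural genes was 11.28 ± 0.18 in MM lines and 11.10 ± 0.07 in DLBCL lines.

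The 26 lines were then ranked by the mean log2 value over the 92 genes. It was 10.83 ± 0.16 in MM lines and 10.68 ± 0.08 in DLBCL lines (SD, n = 12 and 14), a difference of 0.149 (SE 0.052). No p is given, since the genes were chosen as a list. The highest lines were RPMI-8226 (11.08), KMM-1 (10.99), OPM-2 (10.97), MM1S (10.91) and NCI-H929 (10.91). The lowest were SU-DHL-8 (10.48), MOLP-8 (10.53) and LP-1 (10.57). A total of 8 MM lines were above the highest DLBCL line (SU-DHL-5, 10.79), yet MOLP-8 and LP-1 were below 13 of the 14 DLBCL lines, so the MM lines spread more widely. Adjacent lines in this order mostly differed by less than 0.05 and are not told apart by 1 array each. KMM-1 had the highest value of all lines for 15 of the 92 genes and RPMI-8226 for 12, while U-266 and SU-DHL-8 had the lowest for 10 each. Without COX7A2, SDHAF3 and COX7B2, the difference was 0.144, and LP-1 moved to rank 16 and U-266 to rank 21. The largest change of rank from the mean to the median of the 92 genes was that of DB, from rank 11 to rank 24.

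**Figure D3:**
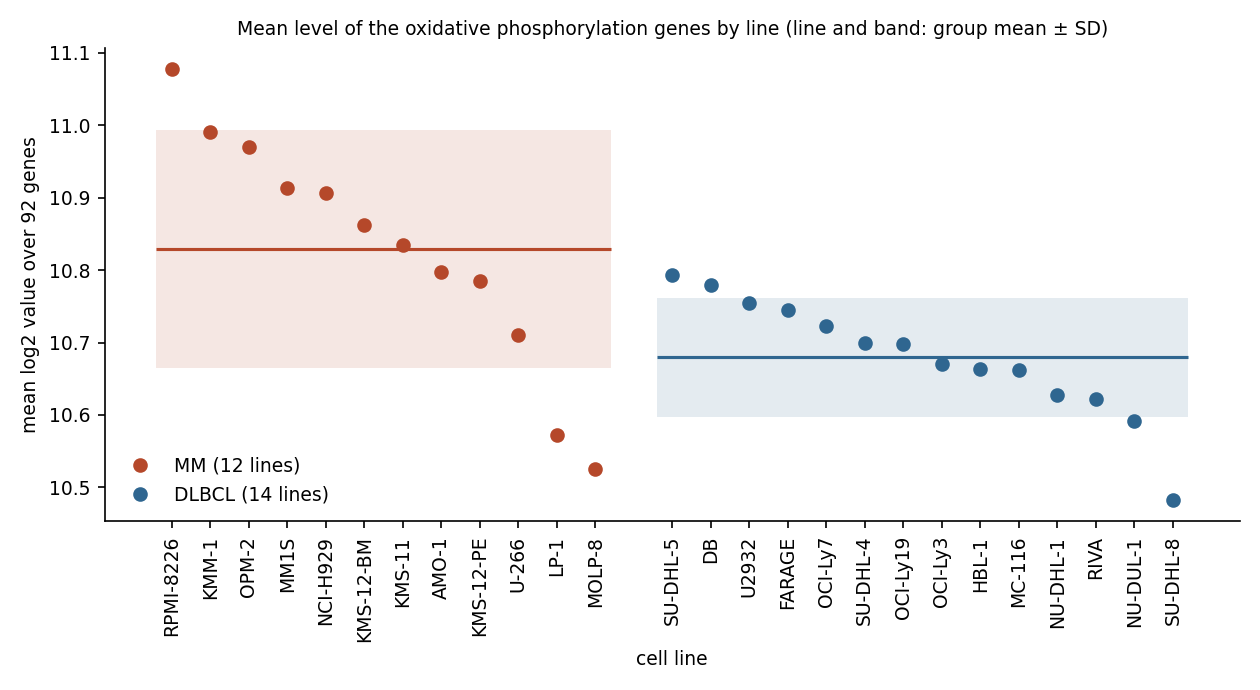
Mean log2 value over the 92 genes (vertical axis) in each cell line, ordered from high to low within MM (red, left) and DLBCL (blue, right). Horizontal lines and bands are the group means ± SD, 10.83 ± 0.16 in MM lines and 10.68 ± 0.08 in DLBCL lines.

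By complex, the mean difference between MM and DLBCL lines was 0.218 for complex I (SE 0.062), 0.393 for complex II (SE 0.112), 0.130 for complex III (SE 0.064), 0.140 for complex IV (SE 0.090) and 0.125 for complex V (SE 0.051). KMM-1 ranked first for complexes I and V, NCI-H929 for complex II and RPMI-8226 for complexes III and IV. SU-DHL-8 was the lowest line for complexes I, III and V, RIVA for complex II and LP-1 for complex IV. Complex IV spread more in MM lines (SD 0.306) than in DLBCL lines (SD 0.063), and it holds both COX7A2 and COX7B2. Across the 26 lines, after each disease was centred on its mean, the mean of complex I correlated with that of complex V at r = 0.68 and of complex III at r = 0.67, while the means of complexes II and IV correlated at r = 0.01. The mean correlation between pairs of genes was 0.133 within complex I, 0.082 over the 92 genes and 0.0099 over all tested probe-sets. Within complexes II, III, IV and V it was -0.069, 0.030, 0.059 and 0.079. In other gene lists described below it was 0.151 (mitochondrial ribosome), 0.186 (glycolysis), 0.187 (regulators of mitochondrial biogenesis), 0.053 (further assembly factors) and 0.046 (citric acid cycle). These are descriptions over 26 lines whose points share an array. COX5B, a subunit of complex IV, followed the mean of the other genes most closely (r = 0.70), then NDUFA1 (r = 0.66) and COX6B1 (r = 0.65). SDHC did not follow it (r = -0.18).

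Genes that work with the complexes were called in both directions. Of all tested probe-sets, 5.49% were higher in MM lines and 5.4% lower. Counting both directions, the shares called among further assembly factors, mitochondrial ribosome genes and glycolysis genes were close to that of all probe-sets (3628 of 33297). Whether any list differed from that share was not tested. Of 7 measured subunits encoded in mitochondrial DNA, none was higher in MM lines and 1, ND6, was lower (-0.79, SE 0.22, adjusted p = 0.0169). The mean of the 7 was 13.17 ± 0.19 in MM lines and 13.15 ± 0.14 in DLBCL lines. CYCS, cytochrome c itself, was higher in MM lines (0.50, SE 0.15, adjusted p = 0.0259), though another of its probe-sets was not called (0.47, adjusted p = 0.355). Of 37 further assembly factors, 3 were higher and 1 lower: COA3 (0.80), SURF1 (0.71) and COX20 (0.87), all factors of complex IV, were higher, and NUBPL (-0.60), which delivers iron-sulfur clusters to complex I, was lower. Of 73 mitochondrial ribosome genes, 5 were higher and 3 lower, and MRPS31 (-1.50, adjusted p = 1.03e-05), MRPL39 (-0.77), MRPL9 (0.75) and MRPL33 (0.47) had the smallest p. Of 16 regulators of mitochondrial biogenesis, 1 was higher and 3 were lower. PPARGC1A, a coactivator that induces respiratory genes, ranged from 3.70 to 9.12 in MM lines with a median of 5.53 and from 3.49 to 4.10 in DLBCL lines with a median of 3.75, and 9 MM lines were above every DLBCL line (difference 2.07, SE 0.53, adjusted p = 0.0113). Its DLBCL values also lie near the low end of the scale, so the same limit on size holds. TFAM, which packages and transcribes mitochondrial DNA, was lower, with a median of 9.15 in MM lines and 10.43 in DLBCL lines (difference -0.97, SE 0.26, adjusted p = 0.0159). TFB1M (-0.87) and GABPA (-0.41) were lower too, and PPARGC1B (0.08) and MYC (0.34, SE 0.67) were not called. Several of these calls depended on the fit. With the ACTB term, ND6 (-0.76, adjusted p = 0.0574), TFAM (-0.77, adjusted p = 0.0989), GABPA (-0.30, adjusted p = 0.203), MRPL33 (0.36, adjusted p = 0.0600) and COX20 (0.66, adjusted p = 0.164) did not pass. With the mean of the proliferation genes described next, ND6 (-0.72, adjusted p = 0.0808), TFAM (-0.73, adjusted p = 0.130), GABPA (-0.40, adjusted p = 0.107) and SURF1 (0.67, adjusted p = 0.0567) did not. Of 26 fits that left out 1 line, GABPA lost its call in 16, COX20 in 5 and TFB1M in 3. None of 12 citric acid cycle genes was called. Of 18 glycolysis genes, ALDOA was higher (0.41) and HK1 lower (-2.17, SE 0.42, adjusted p = 0.00117). Of 20 proliferation genes, 5 were lower in MM lines and their mean was 10.86 ± 0.42 in MM lines and 11.26 ± 0.30 in DLBCL lines. With that mean as a term, 11 of the 92 genes were called, 8 of them among the 9, and 2660 of all 33297 probe-sets, against 3628 without it.

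Promoter sequence was read from RefSeq (GRCh38.p14) for 80 of the 92 genes. In the 250 bases before the start, the core of the NRF1 motif (CGCATGCG, which reads the same on both strands) was present for 10 of 64 matched structural genes (15.6%) and for 2.91% of 15842 protein-coding genes. They were ATP5F1C, ATP5MC2, ATP5ME, ATP5PF, COX6A1, NDUFA5, NDUFB4, NDUFS6, NDUFS7 and SDHD. The ETS core, bound by GABPA among others (CCGGAAG, either strand), was present for 16 of the 64 structural genes and for 2214 of the 15842 protein-coding genes. The SP1 box (GGGGCGGGG, either strand) was present for 15.6% of the structural genes and for 25.6% of protein-coding genes, the YY1 motif (AAGATGGCG) for 1.56% and 0.972%, and the motif of the oestrogen-related receptors (TCAAGGTCA) for none and 0.303%. A match describes the letters only, and genes with several listed starts count if any window holds the motif. SDHC had no promoter entry. Of the other 8 called genes, 3 held an ETS core. Whether this motif is linked to the difference between the diseases was not tested. The 150 bases before the starts of these 3 genes, chosen because they hold the core, are shown with it in capitals. They lie at chrX:119871682-119871831 (plus strand), chr19:14572067-14572216 (minus strand) and chr17:75046970-75047119 (minus strand).
NDUFA1: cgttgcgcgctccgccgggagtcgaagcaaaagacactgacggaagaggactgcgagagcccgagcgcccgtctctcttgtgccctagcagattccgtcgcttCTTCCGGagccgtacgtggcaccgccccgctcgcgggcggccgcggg
NDUFB7: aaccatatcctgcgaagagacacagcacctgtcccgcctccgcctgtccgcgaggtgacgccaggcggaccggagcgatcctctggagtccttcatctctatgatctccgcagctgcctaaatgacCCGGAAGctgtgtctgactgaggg
ATP5PD: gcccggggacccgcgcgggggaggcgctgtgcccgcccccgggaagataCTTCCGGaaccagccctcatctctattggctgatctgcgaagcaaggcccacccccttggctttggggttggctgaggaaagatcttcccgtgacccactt

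The second question was whether baseline expression of these genes followed the resistance of the lines. Slopes are given as log2 change per 100 units of AUC0, with a term for disease, so a negative slope means a lower value in more resistant lines. AUC0 of C ranged from 242 to 395 in 12 MM lines and from 165 to 346 in 12 DLBCL lines, that of H from 227 to 356 in 12 MM lines and from 167 to 327 in 14 DLBCL lines, and that of O from 90 to 187 in 12 MM lines and from 54 to 131 in 12 DLBCL lines. None of the 92 genes had a slope called for C, H or O at an adjusted p under 0.05, and 0.0% of all tested probe-sets was called for each of the 3 drugs. At an unadjusted p under 0.05, 2 genes had a positive and 1 a negative slope for C (2.05% and 1.92% of all probe-sets), 2 and 1 for H (2.84% and 2.13%), and 3 and 8 for O (2.95% and 2.74%).

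For C, the smallest p values were those of NDUFA9, a subunit of the peripheral arm of complex I (-0.41, SE 0.19, p = 0.039 by limma, adjusted p = 0.9997), COX7A1 (0.16), NDUFV2-AS1 (0.61), NDUFS1, which carries iron-sulfur clusters of complex I (-0.26), and NDUFB1 (0.19). The mean over the 92 genes had a slope of 0.034 (SE 0.054). For H, they were those of ATP5PD (0.27, SE 0.10, p = 0.0144 by limma, adjusted p = 0.973), ATP5F1A (0.22), NDUFA10 (-0.43), NDUFC1 (0.34) and ATP5F1E (0.20), and the mean had a slope of 0.029 (SE 0.056). ATP5PD was called higher in MM lines in the separate comparison of the diseases, while its slope on H was not called. Leaving out MOLP-8 brought the slopes of the mean to -0.002 for C and -0.005 for H.

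For O the slopes lay mostly below 0. They were below 0 for 66 of the 92 genes and above 0 for 26 (28.3%), while 47.7% of all tested probe-sets had a slope above 0. The median was -0.18 over the 92 genes and -0.01 over all probe-sets. The mean over the 92 genes had a slope of -0.208 (SE 0.092), which was -0.301 (SE 0.157) in MM lines alone and -0.110 (SE 0.095) in DLBCL lines alone. By complex, the slopes of the means were -0.251 (SE 0.108) for complex I, -0.206 (SE 0.120) for complex III, -0.327 (SE 0.157) for complex IV, -0.126 (SE 0.097) for complex V and 0.070 (SE 0.219) for complex II. The slope of complex IV was -0.665 (SE 0.269) in MM lines alone and 0.032 (SE 0.071) in DLBCL lines alone. That of complex II was 0.209 and -0.078, and those of complexes I, III and V were below 0 in each disease. LP-1, with the highest AUC0 of O (187), weighed on these values. Without it the slope of the mean was -0.140 (SE 0.106) and that of complex IV was -0.060 (SE 0.146). Without LP-1, 61 genes had a slope below 0 with a median of -0.18, but only 2 passed an unadjusted p under 0.05 downwards and none upwards. All 20 proliferation genes and 16 of 18 glycolysis genes also had slopes below 0 for O, with medians of -0.64 and -0.34, and 53 of 73 mitochondrial ribosome genes did, with a median of -0.19. With the mean of the proliferation genes as a term, the median slope of the 92 genes was -0.19.

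ATP5PF, coupling factor 6 of the peripheral stalk of ATP synthase, had the smallest p for O of all 92 genes. In MM lines its value was lowest in LP-1 (11.85, AUC0 187), MOLP-8 (12.13, AUC0 149) and NCI-H929 (12.22, AUC0 149), and it was 12.67 in MM1S and 12.83 in U-266, the lines with an AUC0 of 90. The highest value was that of RPMI-8226 (13.09, AUC0 111). In the DLBCL lines with an AUC0 of O it ranged from 12.08 to 12.73, and it was 12.39 in OCI-Ly19, the line with the lowest AUC0 (54), and 12.38 in DB, that with the highest (131). The slope was -0.74 (SE 0.15, p = 5.5e-05 by limma) with an adjusted p of 0.873, so it did not pass. It was -1.03 in MM lines alone and -0.44 in DLBCL lines alone, and between -0.84 and -0.62 with any 1 line left out. The next were COX5B (-0.67, SE 0.22), SDHAF3 (-2.78, SE 0.93), UQCRB, the ubiquinone-binding protein of complex III (0.60, SE 0.25), and UQCRC1, a core protein of complex III (-0.50, SE 0.22). Without LP-1, the slope of COX5B was -0.29, that of SDHAF3 was -1.33 and that of UQCRB was 0.30. All 3 moved further towards 0 without LP-1 than ATP5PF did. The slope of UQCRB was 1.20 in MM lines alone and -0.03 in DLBCL lines alone, and it was 0.02 with another of its probe-sets.

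**Figure D4:**
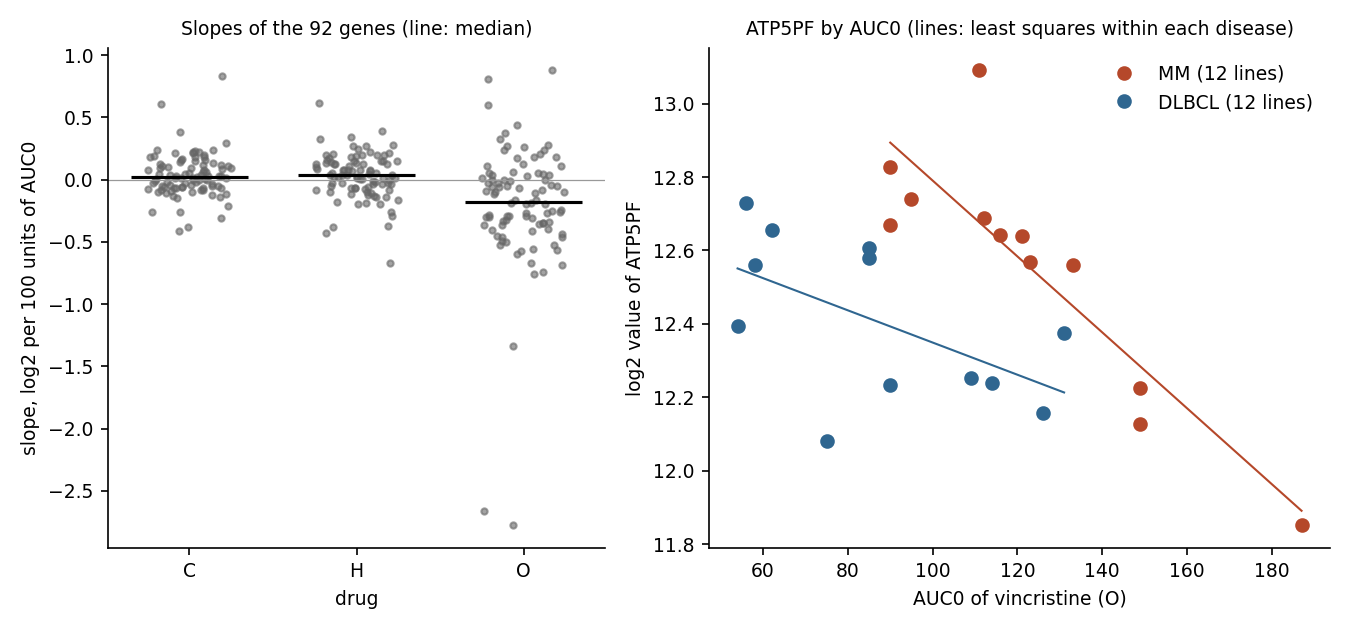
Left, slopes of the 92 genes (vertical axis, log2 change per 100 units of AUC0 with a disease term) for C, H and O, with medians as lines (0.02, 0.04 and -0.18). Right, log2 value of ATP5PF against AUC0 of vincristine in 12 MM lines (red) and 12 DLBCL lines (blue), with a least squares line for each disease. The fitted slopes are -1.03 in the MM lines, where LP-1 lies at the right end, and -0.44 in the DLBCL lines.

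Whether the slopes differed between the diseases was tested with an interaction term. None of the 92 genes was called for C, H or O, and 0.0% of all probe-sets was. At an unadjusted p under 0.05, 1 gene was found for C (4.47% of all probe-sets), 6 for H (5.08%) and 9 for O (4.12%). ATP5MK, a small subunit of complex V, had the smallest p for C (0.69, SE 0.31, MM slope minus DLBCL slope), NDUFB9 of complex I for H (0.79, SE 0.25) and UQCRB for O (1.23, SE 0.43). All had an adjusted p of at least 0.938. ATP5PF was among the 9 for O (-0.60, SE 0.28, p = 0.0452 by limma, adjusted p = 0.9999).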

How the data were processed

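Total RNA of each line was hybridised to 1 array. The deposited values are log2 intensities that the authors made with RMA in the affy package (R version 3.0.1 per the labels), which corrects the background, brings all arrays to a common distribution and summarises each probe-set, so shifts shared by all genes are removed. They ranged from 2.41 to 15.09, with array medians from 5.65 to 5.72, and were used without further scaling. Of 54675 probe-sets, 62 are controls, and 41091 have 1 gene symbol, 1801 several and 11721 none in GEO's platform annotation. Each of the 19775 genes was represented by its probe-set of highest mean over the 26 lines, and every probe-set with several or no symbols was kept.

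MM and DLBCL lines were compared with limma 3.58.1 (R 4.3.3; lmFit and eBayes), and slopes on AUC0 were fitted with a disease term and, for interactions, with their product. Benjamini-Hochberg adjustment ran over all 33297 tested probe-sets. The fits were tested on simulated data. Named genes were those called, those with the largest differences of either sign, those with the smallest p for each drug, the most variable, the isoforms with their counterparts, the SDH subunits and those whose call changed with a setting. From other lists, up to 4 called genes were named. The members and lists were chosen with earlier results of these data known. The number of lines limits the precision, and with 1 array each the replicate spread is that between lines, 2 of which are sister lines. AUC0 came from the labels. Alternatives were another choice of probe-set, centring, omitted lines, serum, RNA quality or proliferation as terms, a filter on dim probe-sets, a trended robust prior and leaving out each line in turn. Promoters are those of RefSeq, GRCh38.p14.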

Additional observations from a re-analysis of the deposited data

How the results depend on the processing

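No paired analysis was possible because the labels carry no replicate numbers and each line was measured once. The 9 genes higher in MM lines became 5 with the 3' minus 5' value of ACTB as a term (2745 of all probe-sets called, against 3628 without it), with the differences of the lost 7 still above 0, and with the probe-set of the largest SD in DLBCL lines 6 were called, since NDUFB7 (-0.00196), NDUFA5 (-0.0600) and COX7B (-0.0910) then took their dimmer probe-sets. Elsewhere the count of genes called in either direction was between 8 and 11. It included NDUFAF7 as a lower gene without KMS-12-PE, and also without MC-116 and AMO-1. When the probe-sets of a gene entered the fit separately, a dimmer probe-set of NDUFA7 was called lower (-0.38, adjusted p = 0.0462). With any 1 line left out, the count in either direction was 7 to 12 (7 without NCI-H929 or RPMI-8226, 12 without MOLP-8). Of the 9, NDUFA8 and COX7B2 lost their call in some of these fits, and the other 7 were called in all 26. GABPA did not pass with the trended robust prior (adjusted p = 0.0508), nor TFB1M without MC-116 and AMO-1 (adjusted p = 0.0570). The difference of the mean over the 92 genes was between 0.127 and 0.177 with any 1 line left out. Its slope was between -0.002 and 0.061 for C, between -0.005 and 0.050 for H, and between -0.268 (without DB) and -0.140 (without LP-1) for O, where it was -0.301 in MM lines alone and -0.110 in DLBCL lines alone. The slope of the mean for O was -0.154 with the probe-set of the largest SD in DLBCL lines and -0.139 without COX7A2, SDHAF3 and COX7B2. The slope of UQCRB for O was -0.0334 in DLBCL lines alone. The cause of these changes was not tested. In every fit that left out 1 line, 0 of the 92 genes were called for the slopes on C, H or O by limma. Genes at the floor of the array, such as COX8C, carry little information, and 1 array per line leaves the technical error unknown.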
